A study of Drosophila melanogaster with 5 samples.

Results

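The elements named gypsy and gypsy with a number were represented by 1857 annotated copies of 12 families, out of 20953 annotated copies of 166 transposable element (TE) families. A copy was included when the family in its annotation was gypsy, or gypsy followed by digits only, a rule that uses no measured value. Each copy carried the number of reads that overlapped it in each library. In 161 cases a copy repeated the place of an earlier copy of its own family, nearly always as 1 sequence aligned to both long terminal repeats (LTRs) of the element. Coordinates are those of the deposited annotation, for which the sources used here name no genome build. Counted once each, the copies occupied 1696 places with a median length of 504.5 bp and a range of 100 to 20808 bp. Places that overlap but differ in start or end were kept apart, so that a read can enter the sums over places more than once.

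The series asked what transcription TEs produce in Drosophila melanogaster. Polyadenylated RNA was read in 5 libraries, each of them the 1 library of its group. With no replicates there was no check of any difference against the spread between samples, and p-values were not given. The line iso1a gave 2 ovary libraries of capped 5′ ends (CAGE), which kept the strand, from RNA of 20 pooled ovaries with 5 µg taken for library making. The Iso1a-454 ovary library was labelled as normalized and the Solexa ovary library as not normalized. The lines iso1a, Rev and IR6 each gave 1 unstranded, random-primed Illumina library of whole bodies, which pooled 10 males less than 24 h old with 10 females aged 0 to 3 days. The iso1a whole body was labelled as normalized, and those of Rev and IR6 were not. The sources used here do not say what normalization stood for or how Rev and IR6 were derived.

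Gypsy is an LTR retrotransposon of the errantivirus type. Its identical LTRs flank genes for a capsid protein and for the enzymes of reverse transcription and integration, and a further gene encodes an envelope protein like that of a retrovirus. Transcription of an intact element starts in the first LTR and ends in the last. In the follicle cells that surround the germline, gypsy is silenced by Piwi and small RNAs from the flamenco locus, and gypsy also carries an insulator bound by the protein su(Hw). The numbered families are separate elements of the same group, and most of their annotated copies are fragments.

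Gene counts, to which every level below was scaled, summed to 109980 in the Iso1a-454 ovary, 2813522 in the Solexa ovary, 4379746 in the iso1a body, 11685814 in Rev and 9633168 in IR6. A count of 3, taken as the floor, stood for 27.3 CPM (counts scaled to a gene total of 1000000) in the Iso1a-454 ovary and for 0.257 to 1.07 in the other libraries. All intervals given are 95% intervals and cover counting error alone, since reads copied by PCR are not independent molecules. The labelled tissues were checked against marker genes. Follicle cell markers summed to 98527 and 50174 CPM in the Iso1a-454 and Solexa ovaries, although tj was at 0 in both and yellow-g in the Solexa ovary. There, 6 of 7 and 7 of 7 testis markers were at 0, and so were all accessory gland markers. Flight muscle markers summed to 27.3 and 51.9 CPM in the Iso1a-454 and Solexa ovaries, and eye markers to 0 and 6.40. Fat body markers, with counts on 3 of 5 genes, summed to 11138 and 7314 CPM in these libraries, above the 1035 of the iso1a body. The germline markers went against the labels, with sums of 363.7 and 318.8 CPM in the Iso1a-454 and Solexa ovaries, against 1406 in the iso1a body, 704.6 in Rev and 510.9 in IR6. Of these, nos was at 0 in both ovary libraries and bam in the Iso1a-454 ovary. In the iso1a body the follicle cell markers summed to 310.5 CPM, against 18531 in Rev and 19867 in IR6, the fat body markers to 1035 against 62405 and 62126, and the eye markers to 924.9 against 1653 and 3182. Its sums were above those of Rev and IR6 for accessory gland (1622 against 413.9 and 438.4), testis (1048 against 578.2 and 688.2) and flight muscle (7661 against 4625 and 4296), as for the germline. The part of these differences in the levels below was not tested, and in tissues made of many cell types fewer cells of a type and less RNA per cell cannot be told apart. For the marker sums of the iso1a body, the line and the label normalization cannot be told apart either.

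Families differed in number and completeness. Gypsy12 had the most places (400), followed by gypsy8 (208), gypsy11 (193), gypsy4 (162) and gypsy5 (161), and gypsy7 had the fewest (30). The LTRs were 251 to 482 bp long in 11 families and 2336 bp in gypsy12, as read from the distance between both alignments of a repeated place. Only 34 places, or 2% of them, were near complete, which means that at least 90% of the longest aligned span of the family was covered in span and in length. Gypsy4 had 7 of these, gypsy 6, gypsy3 5 and gypsy11 none. The median place of gypsy11 was 264 bp long, the shortest of the families, and that of gypsy4 was 1168 bp long, the longest. In gypsy11, 42 of 193 places lay on unplaced or heterochromatic sequence (arm U and the arms ending in Het), against 115 of 162 in gypsy4 and 292 of 400 in gypsy12.

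Summed over all members, the counts were 30 in the Iso1a-454 ovary, 245 in the Solexa ovary, 61788 in the iso1a body, 5731 in Rev and 6099 in IR6. In CPM, this was 272.8 (184 to 389) in the Iso1a-454 ovary and 87.1 (76.5 to 98.7) in the Solexa ovary. It was 14108 (13997 to 14219) in the iso1a body, 490.4 (478 to 503) in Rev and 633.1 (617 to 649) in IR6. The iso1a body stood apart by the largest distance, and the intervals of no pair of libraries overlapped. As a share of all TE counts the order was different, with 7.79% (5.32 to 10.9) in the Iso1a-454 ovary and 3.24% (2.85 to 3.66) in the Solexa ovary. The share was 1.06% (1.05 to 1.07) in the iso1a body, 2.06% (2.00 to 2.11) in Rev and 2.31% (2.25 to 2.37) in IR6. These totals include 1 stretch of arm U, described below, with 83.6% of all TE counts in the iso1a body. It held 22.6% in Rev, 33.9% in IR6, 14.0% in the Solexa ovary and 0.519% in the Iso1a-454 ovary. The part of that stretch in the order of the shares was not tested.

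**Figure D1:**
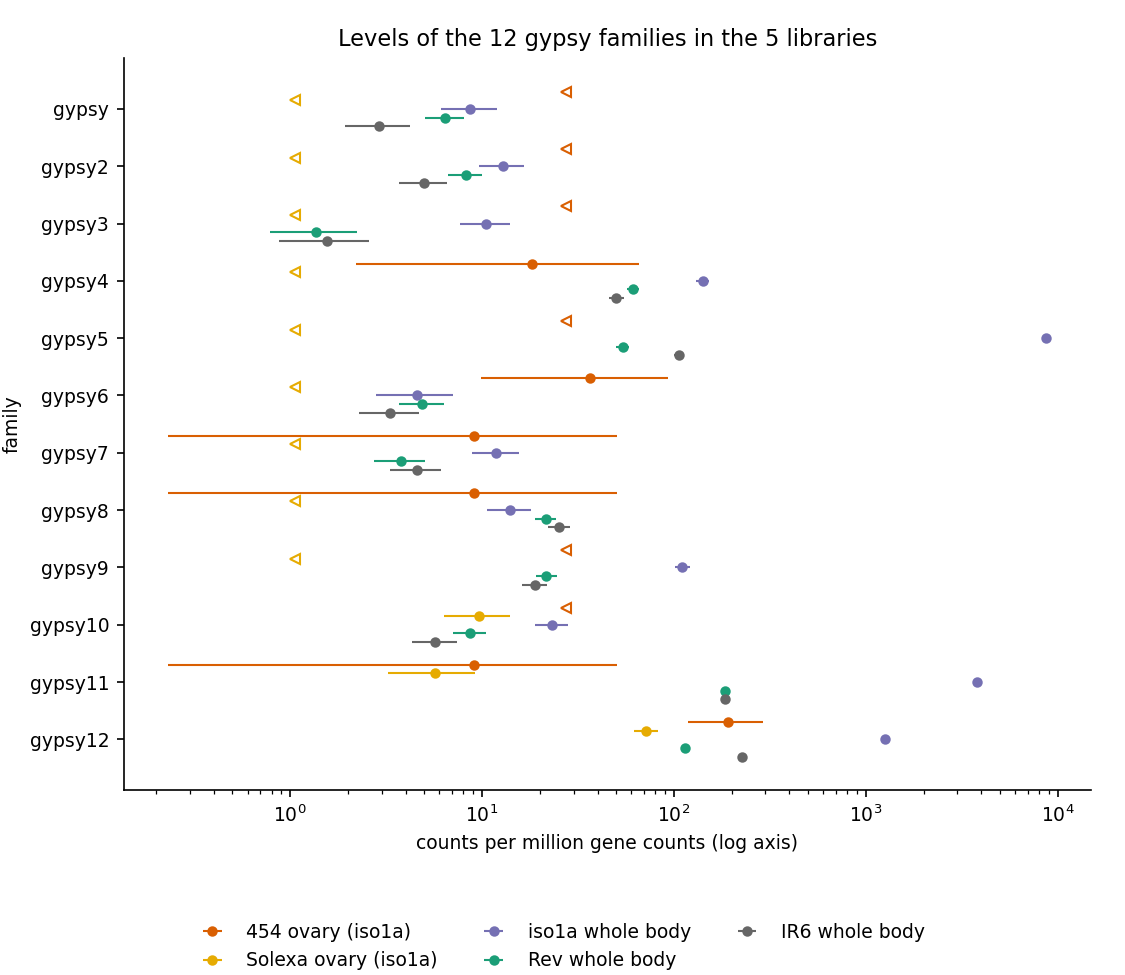
Level of each family in each library, in CPM on a log axis. Filled points are levels with their 95% counting intervals, and open triangles mark families with 0 counts, drawn at the floor of 3 counts. Gypsy5, gypsy11 and gypsy12 of the iso1a body lie far to the right, at 8734, 3776 and 1261, and 9 families have 0 counts in the Solexa ovary.

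The founding family, gypsy, was among the least counted, and gypsy5, gypsy11 and gypsy12 held most counts. Gypsy had no counts in either ovary library, 38 in the iso1a body, 75 in Rev and 28 in IR6. Gypsy5 also had no counts in either ovary library, but 38253 in the iso1a body, 631 in Rev and 1028 in IR6. Gypsy11 had 1 count in the Iso1a-454 ovary, 16 in the Solexa ovary, 16537 in the iso1a body, 2155 in Rev and 1772 in IR6. Together with gypsy12, these families led in all whole bodies except that gypsy4 outranked gypsy5 in Rev, with 714 counts against 631.

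Gypsy12 was the one family with counts well above the floor in both ovary libraries. It had 21 counts in the Iso1a-454 ovary, 202 in the Solexa ovary, 5523 in the iso1a body, 1337 in Rev and 2170 in IR6. Gypsy4 had 2 counts in the Iso1a-454 ovary, none in the Solexa ovary, 618 in the iso1a body, 714 in Rev and 483 in IR6. Gypsy9 had none in the ovary libraries, 483 in the iso1a body, 253 in Rev and 181 in IR6. In CPM gypsy4 stood at 141.1 in the iso1a body, 61.1 in Rev and 50.1 in IR6, and gypsy9 at 110.3, 21.6 and 18.8.

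Gypsy8 was the 1 family with a lower CPM in the iso1a body (13.9) than in both Rev (21.6) and IR6 (25.2), from 61, 252 and 243 counts. Gypsy10 had 27 counts in the Solexa ovary, 101 in the iso1a body, 101 in Rev and 55 in IR6. Gypsy2, gypsy3, gypsy6 and gypsy7 had 15 to 96 counts in each whole body, none in the Solexa ovary and 0 to 4 in the Iso1a-454 ovary. Their levels in whole bodies ran from 1.37 to 12.8 CPM.

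Levels of different families were compared per kb of annotated sequence, with each place counted once. On this scale gypsy11 was first in every whole body, at 58.4 CPM per kb (57.5 to 59.3) in the iso1a body, 2.85 (2.73 to 2.98) in Rev and 2.83 (2.70 to 2.96) in IR6. Gypsy5 was second in the iso1a body (37.5) and the third in Rev (0.232), where its interval overlapped that of gypsy8, and in IR6 (0.458). Gypsy9 was the third in the iso1a body (2.83) and second in Rev (0.538) and IR6 (0.461), where its interval overlapped that of gypsy5. Gypsy and gypsy3 were among the last 4 in all of them, with gypsy at 0.0360 in the iso1a body, 0.0286 in Rev and 0.0122 in IR6. The intervals of neighbours in this order overlapped from gypsy8 downwards in the iso1a body, so that the order of gypsy8, gypsy7, gypsy3, gypsy2, gypsy and gypsy6 is not resolved there. The place of gypsy5 in this order rested on 1 fragment on arm U, described below. Without it, gypsy5 stood at 2.71 CPM per kb (2.61 to 2.81) in the iso1a body, under gypsy9 with an overlapping interval. In Rev it stood at 0.170, under gypsy8 and gypsy4, whose intervals both overlapped its own, and in IR6 at 0.305, under gypsy12.

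Counts were concentrated on few places. Counts fell on 355 of 1696 places in the iso1a body, and the 10 most counted held 82.7% of them. In Rev 389 places held counts and the first 10 held 52.2%, and in IR6 the first 10 of 338 held 55.2%. The most counted place alone held 59.8% in the iso1a body, 9.24% in Rev and 10.9% in IR6. The median counted place had 2 counts in each of these libraries, and 144, 165 and 121 places of the iso1a body, Rev and IR6 rested on 1 count. Of 619 places counted in any whole body, 149 were counted in all of them, and these 149 held 97.4% of the counts in the iso1a body, 88.6% in Rev and 90.6% in IR6. A further 305 places were counted in 1 whole body library only.

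The share of copies with at least 1 count can be set beside that of all TE copies. It was 17 of 1857 in the Iso1a-454 ovary (0.916%, against 0.716% of all TE copies) and 7 in the Solexa ovary (0.377%, against 0.568%). The iso1a body had 389 (20.9%, against 26.5%), Rev 415 (22.3%, against 25.9%) and IR6 361 (19.4%, against 23.1%). With a limit of 3 counts, which 1 copy passed in the Iso1a-454 ovary, 0.0859% of all TE copies passed there. The median length was 468 bp for gypsy copies and 413 bp for other TE copies. No test of these shares was made.

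**Figure D2:**
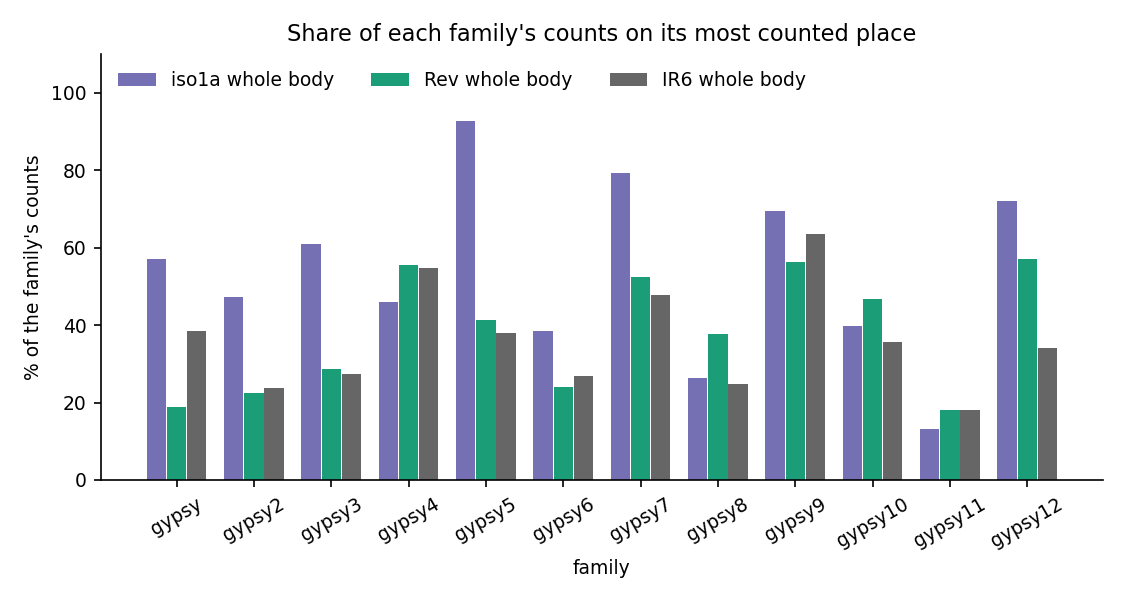
Share of each family's counts that its most counted place held in each whole body library, with each place counted once. The bars run from 13.1% for gypsy11 to 92.8% for gypsy5, both in the iso1a body, and gypsy11 has the lowest bar in each library.

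The most counted place of all was a gypsy5 fragment of 423 bp on arm U, at 5300876 to 5301298 on the plus strand, aligned to positions 5858 to 6300 of an element of 7369 bp. It had 0 counts in the Iso1a-454 and Solexa ovaries, 35492 in the iso1a body, 170 in Rev and 344 in IR6. It held 92.8% of all gypsy5 counts and 59.8% of all gypsy counts in the iso1a body. Within 8000 bp on either side lay 17 other annotated copies of 11 TE families, and those held 4829167 counts in the iso1a body, 62931 in Rev and 89184 in IR6. With the gypsy5 fragment, this stretch carried 83.6% of all TE counts in the iso1a body, 22.6% in Rev, 33.9% in IR6, 14.0% in the Solexa ovary and 0.519% in the Iso1a-454 ovary. Without the fragment, gypsy5 stood at 630.4 CPM (607 to 654) in the iso1a body, 39.4 in Rev and 71.0 in IR6.

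Outside that stretch, highly counted gypsy5 places lay on the long arms. One of 364 bp on 3L, at 9060239 to 9060602, led the family in Rev and IR6, with 389 counts in the iso1a body, 260 in Rev and 389 in IR6. Another of 560 bp on 3L, at 10357318 to 10357877, had 1111 counts in the iso1a body, 127 in Rev and 127 in IR6. A place of 401 bp on X, at 15799115 to 15799515, had 430 counts in the iso1a body, 0 in Rev and 1 in IR6. None of these had a count in the ovary libraries. All 3 were aligned to the same part of the element as the arm U fragment.

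Gypsy12 had 2 leading places, both made of LTR sequence. The first is 274 bp on 3L, at 23096390 to 23096663, and was annotated at both LTR positions. It had 2 counts in the Iso1a-454 ovary, 0 in the Solexa ovary, 2284 in the iso1a body, 479 in Rev and 342 in IR6, and these counts enter the family sum once for each annotation. The second is 2002 bp on 2R, at 1150421 to 1152422, aligned to positions 7967 to 10147 of 10218. It had 8 counts in the Iso1a-454 ovary, 100 in the Solexa ovary, 158 in the iso1a body, 148 in Rev and 618 in IR6. The first led gypsy12 in the iso1a body and Rev, with 72.1% and 57.0% of the family's counts with each place taken once, and the second led in IR6 with 34.1%.

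Gypsy11 was the least concentrated family. Its leading place in Rev and IR6 was 298 bp on 2R, at 5881784 to 5882081, with 829 counts in the iso1a body, 387 in Rev and 319 in IR6. The leading place in the iso1a body was 427 bp on X, at 13893497 to 13893923, with 2165 counts there against 12 in Rev and 4 in IR6. A place of 275 bp on X, at 12551695 to 12551969, had 2027 counts in the iso1a body, 26 in Rev and 22 in IR6. A longer place of 1418 bp on 3L, at 18743726 to 18745143, had 1494, 87 and 68 counts in the same order. A place of 247 bp on 2R, at 1216821 to 1217067, had 1361 counts in the iso1a body, 280 in Rev and 227 in IR6. The leading place held 13.1% of gypsy11 counts in the iso1a body, 18.0% in Rev and 18.1% in IR6.

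In gypsy4 a single place of 204 bp on X, at 3279910 to 3280113, led in every whole body. It had 283 counts in the iso1a body, 396 in Rev and 264 in IR6, which is 45.9%, 55.5% and 54.7% of the family, and none in the ovary libraries. In gypsy8 the leading place of Rev and IR6 was 581 bp on 2L, at 22962665 to 22963245, with 5 counts in the iso1a body, 93 in Rev and 60 in IR6. In gypsy9 the order of the leading places differed between libraries. A place of 291 bp on 3R, at 17837413 to 17837703, had 336 counts in the iso1a body, 53 in Rev and 25 in IR6, and one of 339 bp on X, at 2186812 to 2187150, had 77, 138 and 110.

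Short fragments held most counts in the whole bodies. Places aligned to less than 10% of the longest span of their family made up 56.0% of all places and 15.6% of the annotated sequence. They held 89.3% of gypsy counts in the iso1a body (89.0 to 89.5), 72.8% in Rev (71.6 to 74.0) and 60.3% in IR6 (59.0 to 61.5). Near complete places made up 12.6% of the annotated sequence and held 0.163% of the counts in the iso1a body, 1.93% in Rev and 1.99% in IR6. Without the arm U gypsy5 fragment, the share of the short places was 73.4% in the iso1a body (72.8 to 73.9), 71.9% in Rev and 57.7% in IR6, and that of the near complete places was 0.407%, 1.99% and 2.11%. In the ovary libraries no near complete place was counted in the Solexa library, where 0 of 215 has an interval of up to 1.70%, and 1 count of 25 fell on one in the Iso1a-454 library.

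**Figure D3:**
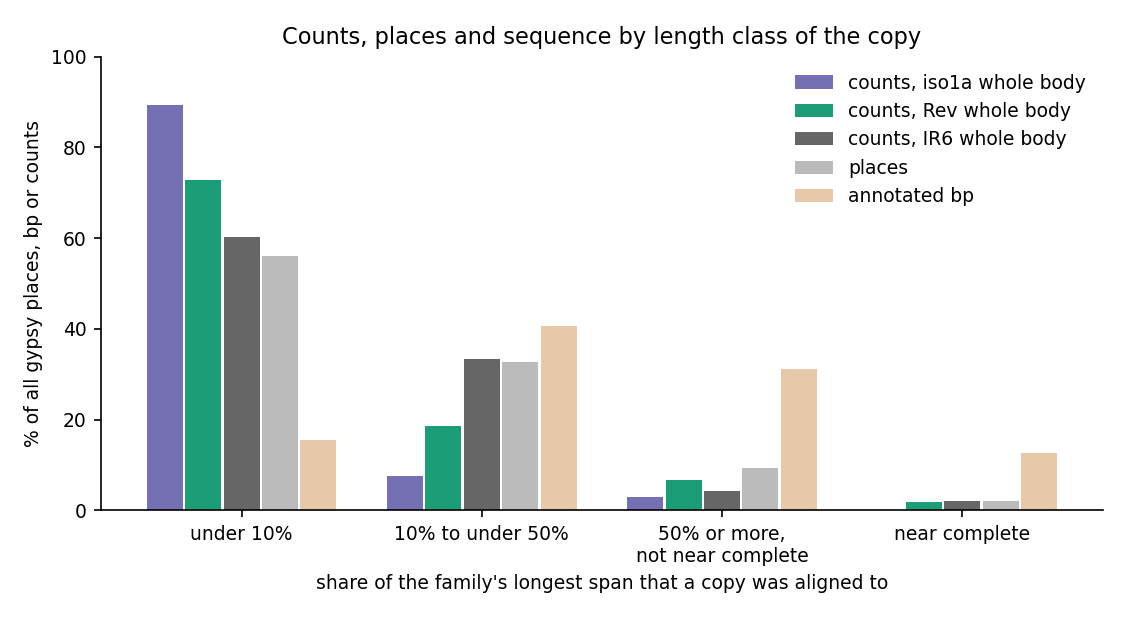
Share of gypsy counts in each whole body library, of places and of annotated bp, by the part of the family's longest span that a place was aligned to. Places under 10% hold 89.3%, 72.8% and 60.3% of the counts of the iso1a body, Rev and IR6 on 15.6% of the sequence, and near complete places hold at most 1.99% of the counts on 12.6% of it.

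The named arms (X, 2L, 2R, 3L, 3R and 4) held 616 of 1696 places and 26.5% of the annotated sequence. They held 86.7% of gypsy counts in Rev, 74.7% in IR6 and all 215 counts of the Solexa ovary. They held 39.0% in the iso1a body, where 60.3% of gypsy counts lay on arm U, with 35492 of 35797 counts there on the gypsy5 fragment. Without that fragment they held 97.0% in the iso1a body, 89.6% in Rev and 79.5% in IR6. The sources used here do not say how reads that match several places were treated, and the part of that treatment in these shares was not tested.

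On the element itself, the counted fragments came from a few stretches. Of gypsy5 counts, 99.8% in the iso1a body, 91.9% in Rev and 86.4% in IR6 lay on 35 of 161 places, those aligned wholly to positions 5700 to 6400. Without the arm U fragment the shares were 97.1%, 88.9% and 79.5%. Of gypsy11 counts, 43.9%, 40.6% and 43.1% in the same order lay on 49 of 193 places aligned wholly within positions 1000 to 1800 of an element of 4428 bp. A further 46.6%, 54.8% and 52.0% lay on 103 places aligned within positions 3400 to 4200. These stretches were chosen after their values were seen. They also hold most gypsy11 places, at 25.4% and 53.4%. The share of counts was thus above that of places in the first gypsy11 stretch and close to it in the second. The gypsy5 stretch holds 21.7% of the gypsy5 places.

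**Figure D4:**
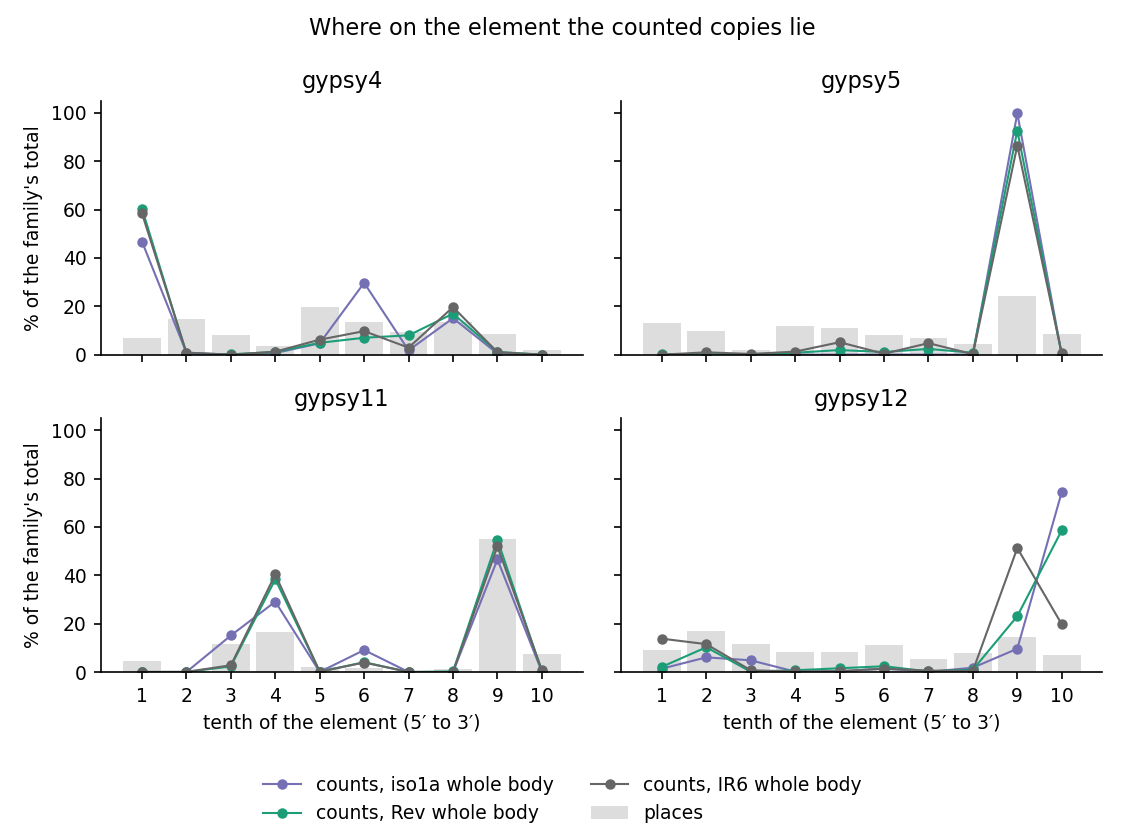
Share of the counts of gypsy4, gypsy5, gypsy11 and gypsy12 in each whole body library (lines), and share of their places (grey bars), over 10 equal stretches of the element, by the middle of the aligned span. Gypsy5 has 99.8%, 92.7% and 86.5% of its counts in stretch 9 in the iso1a body, Rev and IR6, and gypsy12 has 84.0%, 81.7% and 71.0% in stretches 9 and 10. Places annotated at both LTRs are drawn at 1 of their alignments, and with these at the alignment nearest the start the gypsy12 shares are 11.7%, 24.4% and 52.0%.

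Gypsy12 was counted almost wholly on LTR sequence, and the other leading families on internal sequence. LTR places, with at least 90% of the aligned span inside an LTR, held 95.8% of gypsy12 counts in the iso1a body, 93.6% in Rev and 90.7% in IR6, and all 18 and 172 counts of the Iso1a-454 and Solexa ovaries with each place taken once. They made up 33.1% of the annotated sequence of gypsy12. Both LTRs cannot be told apart for the leading place on 3L, which was annotated at each. In gypsy4, gypsy5 and gypsy11, internal places held 99.0%, 99.99% and 87.0% of the counts in the iso1a body. They held 99.7%, 98.3% and 82.3% in Rev, and 99.6%, 95.1% and 83.2% in IR6. Internal places made up 97.2%, 84.8% and 66.5% of the annotated sequence of these families, so that the share of counts in gypsy4 was close to that of sequence. In gypsy4 the first of 10 equal stretches held 46.8% of the counts in the iso1a body, 60.4% in Rev and 58.4% in IR6, mainly on the X place of 204 bp.

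In the ovary the counted places were few. In the Solexa ovary 6 places held counts, and in the Iso1a-454 ovary 14 did, of which 2 were shared between both libraries. The gypsy12 place on 2R at 1150421 held 100 of 215 counts in the Solexa ovary and 8 of 25 in the Iso1a-454 ovary, and so led in both. The second shared place was a gypsy12 LTR fragment of 269 bp on 2L, at 21733077 to 21733345, with 1 count in the Iso1a-454 ovary, 30 in the Solexa ovary, 8 in the iso1a body, 1 in Rev and 1 in IR6. Of the 18 places counted in an ovary library, 15 were also counted in the iso1a body. Some of the 18 overlap each other, as on 3R from 543570, so that a read can be counted at more than 1 of them.

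The remaining places of the Solexa ovary had few counts in whole bodies. A gypsy10 fragment of 347 bp on 2R, at 710617 to 710963, with 81.4% of its span in the LTR, had 27 counts in the Solexa ovary, 1 in the iso1a body, 3 in Rev and 0 in IR6. A gypsy11 fragment of 310 bp on 2L, at 10431023 to 10431332, had 16 counts in the Solexa ovary and 0 in all other libraries, at least 8.30-fold higher than in the iso1a body. Such bounds set the level of the other library, taken without its own counting error, against 3 counts. On 3R, 2 overlapping gypsy12 annotations beginning at 543570 had 21 counts each in the Solexa ovary. The shorter had 1 count in the iso1a body and the longer 17, and neither had more than 2 in Rev or IR6. In the Iso1a-454 ovary 9 of the 14 places had 1 count each, below its floor of 3.

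The Iso1a-454 and Solexa ovaries were compared because they share tissue and line and differ in platform and in the label normalization. A family was measured where both libraries together had at least 50 counts, and called at a ratio of 2-fold. Gypsy12 was the 1 member family measured. It stood at 190.9 CPM in the Iso1a-454 ovary (118 to 292) and 71.8 in the Solexa ovary (62.2 to 82.4), and was called higher with a log2 ratio of 1.44 (0.69 to 2.06). Of 24 TE families measured, 16.7% were called higher and 29.2% lower. The 1 place measured was that on 2R at 1150421, with 72.7 CPM in the Iso1a-454 ovary and 35.5 in the Solexa ovary and a log2 ratio of 1.11. It passed 2-fold, but its interval of -0.22 to 2.07 includes 0. Of 28 TE copies measured, 10.7% were called higher and 64.3% lower. Without arm U and the Het arms the family ratio was 0.87 and was no longer called.

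The Solexa ovary was then set against the iso1a body, the same line in another tissue and another assay, and calls were made at 4-fold. Of 9 measured families 8 were lower in the ovary, all except gypsy10, where 88.8% of 107 TE families were called lower. None was higher, where 1.87% of TE families were. Of the 8, 6 had 0 counts in the Solexa ovary. These 6 reached the minimum count of a pair through the iso1a body alone, so that at the gene total they could only be called lower. Scaling to the total over TE copies moved the median of all TE families by 8.95. Gypsy5 alone was then lower, and gypsy10 and gypsy12 were higher, while the ratios of families at 0 in the ovary rest on the 0.5 added to the counts. TMM scaling moved the median by 1.56 with no call changed. Gypsy5 had 0 counts in the Solexa ovary and 8734 CPM in the iso1a body, at least 8191-fold lower, or at least 591-fold without the arm U fragment. The exact 95% interval, which covers the error of both counts, ends lower, at 6661-fold for gypsy5 as a whole. Gypsy4 and gypsy9, also at 0 in the Solexa ovary, were at least 132-fold and at least 103-fold lower, against 141 and 110 CPM in the iso1a body. Gypsy2, gypsy7 and gypsy8, at 0 as well, were at least 11.99-fold, 11.1-fold and 13.1-fold lower. Their share was close to that of TE families in general.

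The families with counts in both libraries differed among themselves. Gypsy11 stood at 5.69 CPM in the Solexa ovary and 3776 in the iso1a body, a log2 ratio of -9.33 (-10.2 to -8.68). Gypsy12 stood at 71.8 and 1261, a log2 ratio of -4.13 (-4.34 to -3.93). Gypsy10 stood at 9.60 CPM in the Solexa ovary and 23.1 in the iso1a body, and its ratio of -1.25 (-1.94 to -0.64) did not pass 4-fold. Without the most counted copy of each family the ratio of gypsy12 was -1.60 and was no longer called. Tissue, assay and label differ together here and cannot be told apart.

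Among single places, 51 of 52 were lower in the Solexa ovary and none higher, where 96.9% of 985 TE copies were called lower and 1.52% higher. The exception was the gypsy12 place on 2R at 1150421. It stood at 35.5 CPM in the Solexa ovary and 36.1 in the iso1a body, a log2 ratio of -0.02 (-0.40 to 0.35) that was 1.54 with TMM, 1.04 with median-ratio factors and 8.93 with the TE total. The arm U gypsy5 fragment was at least 7600-fold lower, the gypsy12 place on 3L at least 489-fold and the gypsy11 place on X at 13893497 at least 464-fold. The 51 lower places, among them overlapping gypsy12 annotations on 2R at 2212257 and 2212877, all had 0 counts in the Solexa ovary. They reached the minimum count of a pair through the iso1a body alone, so that at the gene total they could only be called lower. Except for the place on 2R at 1150421, every place counted in the Solexa ovary fell short of that minimum. An example is the gypsy10 place on 2R at 710617, with 27 counts against 1 in the iso1a body. These calls thus cannot show whether places were higher in the ovary. The 51 places were also lower with TMM and median-ratio factors. With the TE total 4 places were lower, and 47 of those at 0 had ratios that were not lower by the rule.

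The iso1a body was compared with both Rev and IR6, to which both ratios had to pass 2-fold in the same direction, and they share the iso1a library. The line and the label normalization differ together, so they cannot be told apart. By this rule 8 of 12 families were higher, where 85.2% of 115 TE families were called higher, although 7 of the 8, all except gypsy5, were lower when scaled to the total over TE copies. None was lower by the rule, where 4.35% of TE families were called lower. The median log2 ratio of the member families was 1.54 over Rev and 1.79 over IR6, below the medians of all TE families, 2.90 and 3.00.

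The largest family ratio was that of gypsy5, at 8734 CPM in the iso1a body, 54.0 in Rev and 106.7 in IR6. Its log2 ratios were 7.34 (7.22 to 7.45) over Rev and 6.35 (6.26 to 6.45) over IR6, and the smaller of both was 3.15 without the most counted copy. Gypsy11 followed with 3776 CPM in the iso1a body, 184.4 in Rev and 183.9 in IR6, with a log2 ratio of 4.36 over each. Gypsy12 stood at 1261, 114.4 and 225.3 CPM, with log2 ratios of 3.46 over Rev and 2.49 over IR6, but the smaller was 0.50 without its most counted place. Without its most counted place gypsy11 had a smaller ratio of 4.16, so gypsy5 and gypsy11 still passed 2-fold and gypsy12 did not. Gypsy9 and gypsy10 did not either, at 0.97 and 0.91.

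Of the families with fewer counts, gypsy3 stood at 10.5 CPM in the iso1a body, 1.37 in Rev and 1.56 in IR6, with log2 ratios of 2.91 and 2.72. Gypsy9 stood at 110.3, 21.6 and 18.8, with ratios of 2.35 and 2.55, and gypsy10 at 23.1, 8.64 and 5.71, with ratios of 1.42 and 2.01. Gypsy4 (1.21 and 1.49) and gypsy7 (1.65 and 1.38) passed 2-fold more narrowly. Gypsy, gypsy2, gypsy6 and gypsy8 did not pass over both lines. Gypsy had ratios of 0.44 over Rev and 1.57 over IR6, gypsy2 of 0.64 and 1.36, gypsy6 of -0.07 and 0.47 and gypsy8 of -0.62 and -0.85. TMM scaling, which moved the median of all TE families by -0.52 over Rev and -0.61 over IR6, took gypsy4, gypsy7 and gypsy10 below 2-fold, and gypsy8 was then called lower (-1.14). With each place counted once the smaller ratio of gypsy7 was 0.54, without overlapping copies that of gypsy12 was 0.13, and without arm U and Het that of gypsy4 was 0.87. Scaling to the total over TE copies, 83.6% of which lie on the arm U stretch in the iso1a body, moved that median by -5.80 and -5.60 and left no member family higher and 11 lower.

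Among single places, 49 of 54 were higher in the iso1a body and 1 was lower, where 83% of 1143 TE copies were called higher and 10.9% lower. The minimum of 50 counts in each pair favours higher calls. A place can reach it through the iso1a body alone, while a place low there needs counts in both Rev and IR6. The gypsy12 fragment on arm U at 5945291, with 11 counts in the iso1a body, 0 in Rev and 112 in IR6, was thus not measured. Scaled to the total over TE copies, 12 places were higher and 25 lower. Gypsy11 gave 36 of the higher places out of 37 measured, and gypsy5 gave 6 of 6. The higher gypsy12 places include overlapping annotations on 2R, at 2212257 to 2214394 and 2212877 to 2213847. The gypsy11 places spanned a wide range, which began near 0 for a place of 497 bp on 2L, at 9177168 to 9177664. It had 88 counts in the iso1a body, 189 in Rev and 174 in IR6, and ratios of 0.32 and 0.16. At the far end, the place on X at 13893497 had ratios of 8.85 (8.10 to 9.87) over Rev and 10.05 (8.86 to 12.1) over IR6. A gypsy11 place of 381 bp on X, at 7932683 to 7933063, had 331 counts in the iso1a body and 1 in each of Rev and IR6, with ratios of 9.20 (7.30 to 15.1) and 8.93 (7.02 to 14.8).

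Other places with large ratios belonged to gypsy5 and gypsy12. The arm U gypsy5 fragment had ratios of 9.12 over Rev and 7.82 over IR6. The gypsy5 place on X at 15799115, with 0 counts in Rev, was at least 382-fold higher than there. The gypsy12 place on 3L at 23096390 had ratios of 3.67 (3.53 to 3.81) and 3.88 (3.71 to 4.04). The 1 lower place was the gypsy8 fragment on 2L at 22962665, with 1.14 CPM in the iso1a body, 7.96 in Rev and 6.23 in IR6 and ratios of -2.67 (-4.46 to -1.53) and -2.32 (-4.12 to -1.15).

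Besides the gypsy11 place on 2L, 3 places were not called. The gypsy9 place on X at 2186812 had ratios of 0.58 over Rev and 0.63 over IR6. The gypsy4 place on X at 3279910 had ratios of 0.93 and 1.24. The gypsy12 place on 2R at 1150421 stood at 36.1 CPM in the iso1a body, 12.7 in Rev and 64.2 in IR6, with ratios of 1.51 over Rev and -0.83 over IR6. It is the 1 measured place at which the signs over both lines were opposite.

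**Figure D5:**
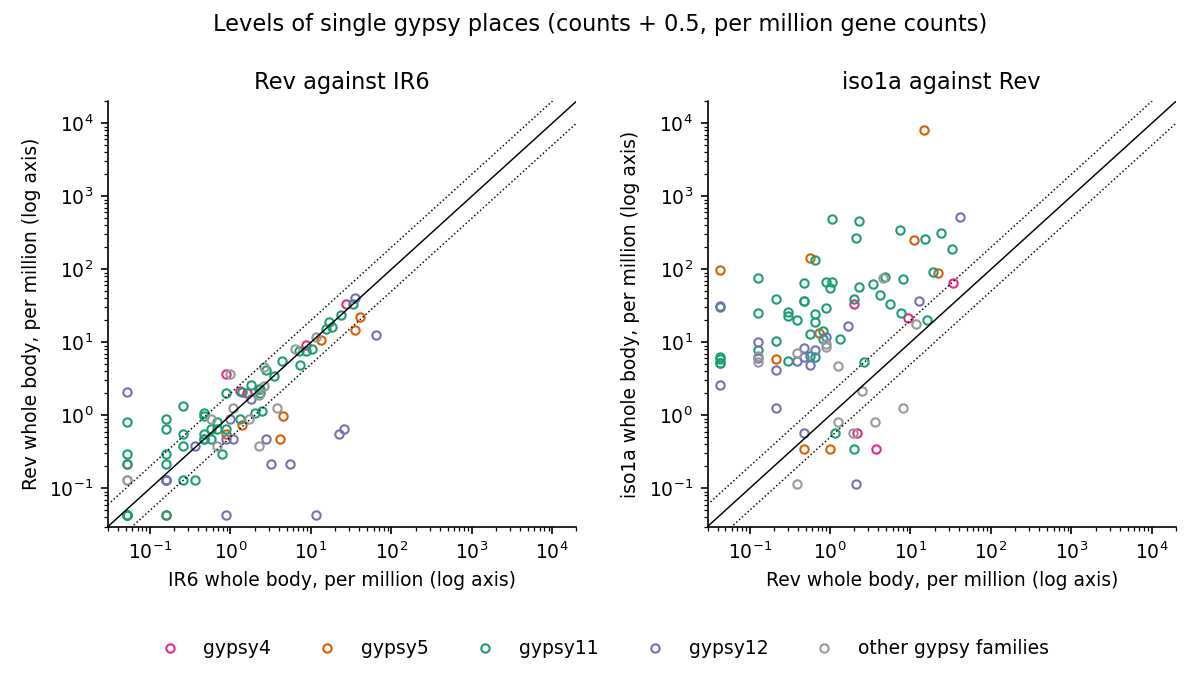
Levels of the places with at least 20 counts in any whole body library, in CPM after adding 0.5 to the counts, both axes logarithmic, with equality (solid) and 2-fold (dotted) lines. In the left panel, Rev against IR6, the 12 measured gypsy11 places lie within the dotted lines and several gypsy12 places lie far below. In the right panel, iso1a against Rev, most places lie above, led by the gypsy5 fragment of arm U.

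Rev and IR6 shared tissue, platform and labels and differed in line. Of 11 families measured, gypsy was the 1 called, higher in Rev with 75 counts against 28 in IR6 (6.42 and 2.91 CPM), where 6.54% of 107 TE families were called higher. Its log2 ratio was 1.13 (0.50 to 1.82). Its counts were spread over 22 places in Rev and 6 in IR6, and the most counted held 14 and 10. The call was lost with median-ratio scaling (0.97) and without overlapping copies (0.79). No member family was lower by the rule, where 0.935% of TE families were.

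Gypsy5 and gypsy12 lay just under 2-fold. Gypsy5 stood at 54.0 CPM in Rev and 106.7 in IR6, with a log2 ratio of -0.98 (-1.13 to -0.84). Gypsy12 stood at 114.4 in Rev and 225.3 in IR6, also -0.98 (-1.08 to -0.88). With TMM scaling both passed 2-fold, at -1.07 each, and with each place counted once gypsy12 alone did, at -1.39. Without the most counted copy of each family gypsy12 had -2.25 and gypsy5 -1.06. Gypsy11 had a ratio of 0.00 (-0.09 to 0.10). The ratios of the remaining families ran from -0.28 for gypsy7 to 0.71 for gypsy2.

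The gypsy12 places moved apart. Of 6 measured, 5 were lower in Rev, and 3 of these overlap at 1 location. That location is on 3RHet, from 640872 to 643144, where 7 counts in Rev, 250 in IR6 and 34 in iso1a lay on a fragment of 2273 bp aligned to the 3′ LTR. Its log2 ratio of Rev over IR6 was -5.34 (-6.77 to -4.37). A fragment of 1349 bp that begins at the same base was aligned to the 5′ LTR, so that both LTRs cannot be told apart here. The shorter fragment had 6 and 212 counts in Rev and IR6 and a ratio of -5.31 (-6.88 to -4.28). A fragment of 2567 bp on arm U, at 5945291 to 5947857, had 0 counts in Rev, 112 in IR6 and 11 in iso1a. It was at least 45.3-fold lower in Rev, or 36.2-fold by the exact interval. This fragment and the 3 annotations on 3RHet reached the minimum of 50 counts through IR6 alone. With 0 counts in Rev, the arm U fragment could only be called lower. The place on 2R at 1150421 had 148 counts in Rev, below the 618 of IR6, a ratio of -2.34 (-2.61 to -2.08). The place on 3L at 23096390, with 479 counts in Rev and 342 in IR6, had a ratio of 0.21 (0.00 to 0.41) and was the 1 measured gypsy12 place that was not called.

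Over all measured members, 2 of 31 places were higher and 8 lower in Rev, where 11.6% of 767 TE copies were called higher and 4.82% lower. The 8 include the 3 overlapping gypsy12 annotations of 1 location on 3RHet, and the shares of TE copies include repeated places. Those 3 and the gypsy12 fragment of arm U reached the minimum count of the pair through IR6 alone. The higher places were both long. A near complete gypsy10 copy of 5488 bp on 2R, at 1044247 to 1049734, had 42 counts in Rev, 9 in IR6 and 3 in iso1a, a log2 ratio of Rev over IR6 of 1.88 (0.88 to 3.17). A gypsy4 copy of 3258 bp on 3RHet, at 1829825 to 1833082, had 43, 8 and 1 counts in the same order and a ratio of 2.08 (1.04 to 3.45). Outside gypsy12, the lower places were a gypsy5 copy of 2548 bp on 3LHet (11 counts in Rev, 43 in IR6), the gypsy5 fragment of arm U (170 and 344) and a gypsy8 fragment of 338 bp on 3L (14 and 36). All 12 gypsy11 places lay between -0.58 and 0.59.

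Near complete copies carried few counts, with a highest value of 42. Of the 34, 14 held counts in the iso1a body, 18 in Rev and 14 in IR6. Next to the gypsy10 copy, a gypsy5 copy of 7365 bp on X, at 11088517 to 11095881, had 1 count in the iso1a body, 5 in Rev and 39 in IR6. In the same order, a gypsy12 copy of 10001 bp on 2R, at 2184174 to 2194174, had 36, 5 and 8. A gypsy8 copy of 4938 bp on 2R, at 759212 to 764149, had 0, 4 and 21, and a gypsy3 copy of 7648 bp on 3R, at 3521432 to 3529079, had 28, 1 and 0. Of the 6 near complete gypsy copies, the highest value was 5 counts, in Rev, for a copy of 7466 bp on 2R at 936722 to 944187, and 3 had no counts in any library.

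The longest annotated copies, 1 for each family, held 0 to 42 counts in any library. For gypsy (15284 bp on 3LHet), gypsy2 (20808 bp on X) and gypsy11 (2475 bp on 3RHet), counts were seen in Rev only, with 1, 6 and 5. For gypsy6 (10424 bp on 3RHet) and gypsy7 (9164 bp on 3LHet) there were none in any library. The longest copies of gypsy4 (17298 bp), gypsy5 (11469 bp), gypsy9 (5322 bp) and gypsy12 (15689 bp), all on arm U, had 2, 0, 12 and 0 counts in the iso1a body, 4, 3, 10 and 1 in Rev and 6, 2, 3 and 3 in IR6. Several of these exceed the length of their element (7469 bp for gypsy), since an annotated copy can span other sequence.

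Other LTR families of the gypsy group, from a list of 35 of which 34 were in the files, gave a setting for these values. In the iso1a body against Rev and IR6, 31 of 32 measured were higher, with median log2 ratios of 3.65 and 3.99, against 1.54 and 1.79 for the gypsy families. In the Solexa ovary against the iso1a body, 31 of 32 were lower. In Rev against IR6, 1 of 30 was higher and none lower, with a median of 0.07 against 0.20. No test of these differences was made.

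Genes that act on gypsy were listed as 3 insulator proteins and 16 proteins of the piRNA pathway in somatic cells. In Rev against IR6, none of 3 measured insulator genes and 1 of 15 measured piRNA genes was higher and none lower, where 4.34% of 10300 genes were called higher and 3.47% lower. The higher one was armi, a helicase needed to make piRNAs, at 22.8 CPM in Rev and 10.6 in IR6, with a log2 ratio of 1.10. The gene su(Hw), whose protein binds the gypsy insulator, stood at 157.5 in Rev and 83.7 in IR6 (0.91), and piwi, which carries the piRNAs, at 190.7 and 134.7 (0.50). In the iso1a body against both lines, 1 of 3 insulator genes was higher and 1 lower, and 5 of 15 piRNA genes were higher and 3 lower, where 35.2% of genes were called higher and 19.3% lower.

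Of these, piwi was higher in the iso1a body at 461 CPM (1.27 over Rev and 1.78 over IR6), and mod(mdg4), a partner of su(Hw) at the insulator, was lower at 52.7 against 138 and 135 (-1.39 and -1.35). In the Solexa ovary against the iso1a body, 2 of 3 insulator genes were lower, and of 14 piRNA genes 1 was higher and 6 were lower, where 5.08% of genes were called higher and 61.4% lower. In the Iso1a-454 ovary against the Solexa ovary, 1 of 11 piRNA genes was higher and 2 were lower, where 14.9% of genes were called higher and 40.5% lower. The gene fs(1)Yb, which is needed for piRNAs in follicle cells, had 1 count in the Iso1a-454 ovary, 0 in the Solexa ovary, 4 in the iso1a body, 11 in Rev and 6 in IR6, which was too few to compare. All listed genes except fs(1)Yb, arx and Gasz overlap another annotated gene, among them su(Hw), mod(mdg4), piwi and armi. In the unstranded whole body libraries reads of overlapping genes cannot be told apart, a limit that also holds for the counts of genes called in both lists.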

How the data were processed

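The aligner was Bowtie, per the submitters' processing notes, which give no version. The deposited values are counts of reads per transcript and per annotated TE copy; families and element positions are other attributes deposited by the authors, the TE files naming S-MART in their source column. No copy sequences were used here, and the sources used here name no genome build, so copies were not placed in genes. Of 13265 genes, 12473 matched a symbol by locus tag and 414 by synonym. A gene took its largest transcript count. A nameless row of 0 to 681 counts was left out. Levels are CPM, counts scaled to a gene total of 1000000, with exact Poisson intervals. Ratios are log2 with 0.5 added and conditional Clopper-Pearson intervals, for features with at least 50 counts in each pair of libraries. Members and lists were chosen with earlier results of these data known. Copies named were the most counted per library (5 in whole bodies, 3 in ovaries), up to 3 with the largest ratios each way and the longest per family, while others were named after their values were seen. Alternatives changed scaling (edgeR 4.0.16 TMM, DESeq2 1.42.0 median-ratio, other totals), minimum count, pseudocount and the copies included, with merging of overlapping copies, the element stretches, leaving out the arm U gypsy5 place and scaling of the Solexa place calls chosen after the data were seen. Python 3.11.15 and R 4.3.3 were used. The functions were tested on simulated data.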

Additional observations from a re-analysis of the deposited data

How the results depend on the processing

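Every value here is from 1 library a group, and intervals cover counting error only. Gypsy levels in CPM, 272.8 in the Iso1a-454 ovary, 87.1 in the Solexa ovary, 14108 in the iso1a body, 490.4 in Rev and 633.1 in IR6, moved with scaling. With TMM they were 148 in the Solexa ovary, 8119 in the iso1a body, 405.4 in Rev and 556.4 in IR6, and with median-ratio factors 397.3, 131.2, 10187, 368.4 and 531.9 in the order above. Scaled to genes and TE copies, the iso1a body stood at 6057 and IR6 at 616.2, and scaled to the TE total alone the levels were 77922, 32382, 10615, 20548 and 23089. Without repeated places they were 76.4 (Solexa ovary), 13550 (iso1a), 443.5 (Rev) and 590.4 (IR6), and with overlapping copies merged 68.95, 13515, 439.5 and 559.5. Without overlapping copies they were 118.2, 50.8, 12861, 368.4 and 465.7 over all 5 libraries, with long copies only 18.2, 0, 429.2, 37.7 and 37.1, and without the most counted copy of each family 127.3, 36.2, 4282, 289.8 and 442.3. Without arm U and Het they were 163.7 (Iso1a-454 ovary), 5834 (iso1a), 428.7 (Rev) and 479.9 (IR6). Copies with counts numbered 6, 3, 238, 264 and 238 without overlapping copies, and with at least 3 counts 1 in the Iso1a-454 ovary, 178 in iso1a, 177 in Rev and 148 in IR6.

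In Rev against IR6, lower families numbered 2 with TMM, median-ratio factors or without the most counted copies, and 1 without repeated places, without overlapping copies, with long copies only or with merging. Higher families numbered 0 with median-ratio factors and 2 without overlapping copies. Copies numbered 4 higher and 13 lower from 20 counts, 201 and 176 from 1 count, and 4 lower without overlapping copies. In the iso1a body against Rev and IR6, families numbered 5 higher and 1 lower with TMM and with genes and TE copies, 0 and 11 with the TE total, and 4 and 1 without overlapping copies. They numbered 3 higher with long copies only and 4 higher without the most counted copies. Copies numbered 12 higher and 26 lower with the TE total, 80 and 2 from 20 counts, and 307 and 37 from 1 count. With the TE total, the log2 ratio nearest 0 was -5.36 for gypsy, -5.16 for gypsy2, -2.88 for gypsy3, -4.59 for gypsy4, -4.22 for gypsy7, -3.45 for gypsy9, -4.38 for gypsy10, -1.44 for gypsy11 and -3.11 for gypsy12.

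In the Solexa ovary against the iso1a body, families numbered 5 higher and 1 lower with the TE total, where gypsy2 had 2.77, gypsy7 2.87, gypsy8 2.65, gypsy10 7.70 and gypsy12 4.82. The first 3 had 0 counts in the ovary, so those values rest on the 0.5 added and show nothing higher. Places numbered 11 higher, of which 10 had 0 counts, and 4 lower with the TE total, an alternative chosen after the data were seen. Lower families numbered 4 without overlapping copies and without the most counted copies, and 3 with long copies only. In the Iso1a-454 against the Solexa ovary, 1 family was lower from 20 counts, 6 were higher and 1 lower from 1 count, and 0 were higher with long copies only or without arm U and Het. The cause of these changes was not tested, except that the settings that leave out copies or lower the minimum change what is counted. No paired analysis was possible because each group has 1 library. Depth limits the Iso1a-454 ovary most, where 9 of 14 counted places had 1 count.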

Other observations

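Read names were listed with each copy but broken off after 100 characters, so only part of the names could be compared. Of the complete names listed on gypsy copies, 2 of 17 in the Iso1a-454 ovary, 0 of 15 in the Solexa ovary, 35 of 887 in the iso1a body, 12 of 598 in Rev and 5 of 541 in IR6 were also listed at a separate place. The names cover 1.44% of the gypsy counts in the iso1a body, 10.4% in Rev and 8.87% in IR6.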
